A study of Homo sapiens with 8 samples.

Results

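The 31 genes described here encode the BCL2 family, caspases and the proteins that switch caspases on or hold them back. They were chosen by symbol from a fixed list of apoptosis genes, and all 31 were found by their Ensembl identifiers among the 63677 genes of the count tables. After the filter on low counts, 28 of the 31 were tested in MOLT-4, 28 in DND-41 and 29 where both lines were fitted together. In MOLT-4 the untested members were BCL2A1, HRK and BOK, and in DND-41 they were BCL2A1, BIK and HRK. In the fits of both lines they were BCL2A1 and HRK.

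The mitochondrial route of apoptosis turns on contacts between 3 classes of BCL2 family proteins. Survival proteins such as BCL2, BCL-xL (from BCL2L1) and MCL1 hold the pore formers BAX and BAK1 in check, and BH3-only proteins such as BIM (from BCL2L11) occupy the survival proteins or activate the pore formers. Pores in the outer mitochondrial membrane release cytochrome c, which assembles with APAF1 and CASP9 into the apoptosome, while death receptors reach the same caspases through FADD, CASP8 and its inhibitor CFLAR. Immature T cells, the cells from which T-cell leukaemia arises, depend on this balance during selection in the thymus.

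RNA sequencing covered 2 established human T-cell acute lymphoblastic leukaemia lines, MOLT-4 and DND-41. The cells were grown for 24 h with 100 nM of ACBI-1 or with DMSO, its solvent, with 2 libraries for every one of the 4 combinations. ACBI-1 is a chimeric degrader that recruits the ubiquitin ligase VHL to the bromodomain proteins SMARCA2, SMARCA4 and PBRM1 of chromatin remodelling complexes. Each line is a single established culture, and untreated cells were not analysed here. The groups are MOLT-4 with ACBI-1, MOLT-4 with DMSO, DND-41 labelled ACBI-1 and DND-41 labelled DMSO, with no other allele or agent in the labels.

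Library totals lay between 21308737 and 22067644 counts, and no label says that the libraries came from separate cultures, so the spread behind the p-values may be technical. T-lineage genes were present in both lines, with CD3E at 694 to 775 CPM (the usual scaling of counts to library size, with TMM factors within a line) in MOLT-4 and 789 to 1163 CPM in DND-41, although PTCRA was at 0 to 0.0449 CPM in DND-41. TAL1, a transcription factor active in MOLT-4, was at 54.3 to 112.6 CPM there, and TLX3, the one active in DND-41, at 127 to 258 CPM in DND-41 and at 0 counts in MOLT-4. Of 13 B-lineage, myeloid, erythroid, epithelial and stromal markers, 11 stayed at or below 0.622 CPM in every library. The exceptions were CD79A and COL1A1. CD79A was at 0.491 and 0.266 CPM with ACBI-1 and at 4.37 CPM in both DMSO libraries of MOLT-4, and at 188 and 216 CPM in the libraries numbered 2 and 711 and 767 CPM in those numbered 1 of DND-41. COL1A1 was at 13.8 CPM in MOLT-4 ACBI-1 replicate 2 and at most 1.09 CPM elsewhere. Their part in the results was not tested.

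The MOLT-4 libraries grouped by treatment and the DND-41 libraries did not. By chi-square per degree of freedom, where 1 is counting noise alone, the MOLT-4 pairs of a group were apart by 2.65 with ACBI-1 and 1.52 with DMSO. In DND-41 the pair labelled ACBI-1 differed by 68.3 and the pair labelled DMSO by 64.6, whereas the 2 libraries numbered 2 differed by 5.09 and the 2 numbered 1 by 5.49. For DND-41, the authors' deposited table gave log2 fold changes equal to a contrast of number 2 over number 1 in 100% of 27069 genes (tolerance 0.001), and to the contrast by treatment label in 0.1515%. Which libraries of DND-41 received ACBI-1 therefore cannot be told from the sources used here. DND-41 values are given below both as labelled and by number, and a difference by number is not called an effect of ACBI-1.

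With ACBI-1 in MOLT-4, 3 of the 5 survival genes fell and BH3-only genes moved in both directions. The survival genes MCL1, BCL2L1 and BCL2 fell, BMF and BBC3 rose, and BIK, BID and PMAIP1 fell. CFLAR, CASP10 and RIPK1 of the death receptor route rose, while the inflammatory caspases CASP1 and CASP4 fell the most of the caspases. Of the 28 members tested, edgeR (quasi-likelihood test, 2-sided, Benjamini-Hochberg over all genes) called 10 higher and 11 lower at an adjusted p under 0.05, against 58.4% of all 14618 genes tested (28.2% higher and 30.2% lower). The members called are 75% of those tested, and no test set this apart from the share of all genes. The members' median log2 fold change was 0.05 against 0.01 over all genes. A positive log2 fold change means higher with ACBI-1. When libraries were scaled by total counts, the median over all genes moved by 0.12 on the log2 scale and 13 members were higher and 9 lower (5804 and 3031 of all genes), so a small change depends on the scaling. With the spread shared with the DND-41 libraries as labelled, 3 members were called, CASP10 higher and CASP1 and CASP4 lower, against 3.39% of all genes. Grouping the DND-41 libraries by number in that shared fit, an alternative added after the data were seen, called 19 members and 46% of all genes. In 26 of the 28 tested members the treated pair did not overlap the DMSO pair, as in 77.7% of all genes tested.

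**Figure D1:**
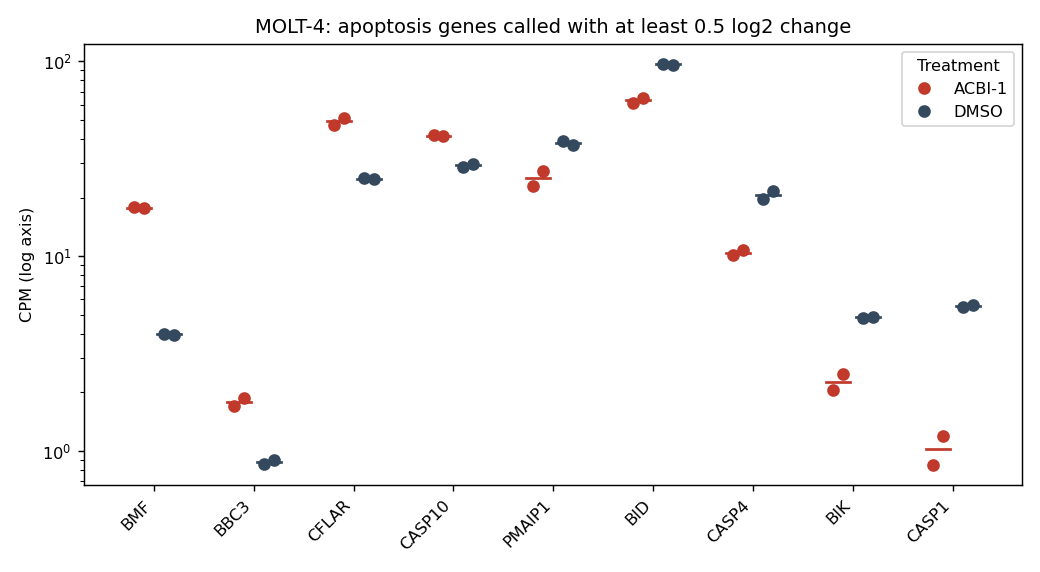
CPM (log axis) of the 9 members that were called in MOLT-4 with an absolute log2 fold change of at least 0.5, 1 point per library and a line at each mean, with ACBI-1 left of DMSO. BMF lies at 17.6 and 17.9 CPM with ACBI-1 and at 3.94 and 3.99 CPM with DMSO, CASP1 at 0.847 and 1.20 CPM with ACBI-1 and at 5.51 and 5.60 CPM with DMSO, and in none of the 9 genes do the groups overlap.

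Of the 5 survival genes, 3 fell with ACBI-1 in MOLT-4, BCL2L2 missed the threshold and BCL2A1 was too low to test. MCL1, a short-lived protein that binds BIM, NOXA and BAK, had 99.5 and 108 CPM in the ACBI-1 libraries, against 140.1 and 135 CPM in the DMSO libraries (log2 fold change -0.41, SE 0.0432, edgeR adjusted p = 4.5e-11). BCL2L1, whose main product BCL-xL guards immature thymocytes, had 138 and 133 CPM in the ACBI-1 libraries, against 155 and 151 CPM in the DMSO libraries (log2 fold change -0.17, SE 0.0401, edgeR adjusted p = 2.68e-04). BCL2, the founding member of the family, had 18.1 and 19.2 CPM in the ACBI-1 libraries, against 22.3 and 21.7 CPM in the DMSO libraries (log2 fold change -0.24, SE 0.0772, edgeR adjusted p = 0.00704). The ACBI-1 libraries were the low pair for all 3 genes in CPM, and the groups did not overlap. In TPM, a unit per exon length described below, this held for MCL1 alone, at 75.8 and 84.7 with ACBI-1 against 95.0 and 93.0 with DMSO. BCL2L1 had 139.1 and 137.8 TPM with ACBI-1 against 138.7 and 136.6 with DMSO, so its groups overlapped. Those of BCL2 overlapped too, at 5.12 and 5.61 TPM with ACBI-1 against 5.62 and 5.55 with DMSO.

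These falls were small, a factor of 1.33 for MCL1, 1.13 for BCL2L1 and 1.18 for BCL2. With scaling by total counts BCL2L1 (log2 fold change -0.05, edgeR adjusted p = 0.241) and BCL2 (-0.12, edgeR adjusted p = 0.182) kept their sign and lost the call. BCL2 also lost it under the authors' deposited table, by DESeq2 (adjusted p = 0.137), and without ACBI-1 replicate 1 (edgeR adjusted p = 0.0839) or DMSO replicate 1 (edgeR adjusted p = 0.0512). BCL2L2, which encodes BCL-w, was at 1.56 and 2.35 CPM in the ACBI-1 libraries, against 1.19 and 1.38 CPM in the DMSO libraries (log2 fold change 0.61, SE 0.269, edgeR adjusted p = 0.0501). It was called higher with total-count scaling (0.73, edgeR adjusted p = 0.0163) and without ACBI-1 replicate 1 (0.87, edgeR adjusted p = 0.0359). In the GENCODE 29 annotation that gene overlaps PPP1R3E on the opposite strand, whose counts were 1050% of its own in MOLT-4 and had a log2 fold change of 0.63, and whether the counting used strand is not given. BCL2A1, which encodes BFL-1, had 0 and 1 counts in the ACBI-1 libraries, against 2 and 1 in the DMSO libraries, so no difference could be seen at this depth. Counts per gene do not separate the long survival forms of BCL2L1 and MCL1 from their short death-promoting forms.

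Among the 8 BH3-only genes, BMF, BBC3 and BCL2L11 rose with ACBI-1 in MOLT-4, BIK, BID and PMAIP1 fell, BAD was not called and HRK was not tested. BMF, a BH3-only protein that can be held at the cytoskeleton, had 17.9 and 17.6 CPM in the ACBI-1 libraries, against 3.99 and 3.94 CPM in the DMSO libraries. Both ACBI-1 libraries were far above both DMSO libraries, a factor of 4.48 (log2 fold change 2.16, SE 0.115, edgeR adjusted p = 2.19e-20). BBC3, which encodes PUMA, a partner of all the main survival proteins, had 1.70 and 1.86 CPM in the ACBI-1 libraries, against 0.855 and 0.902 CPM in the DMSO libraries (log2 fold change 1.01, SE 0.291, edgeR adjusted p = 0.0028). This rested on 38 and 42 counts with ACBI-1 against 18 and 19 counts with DMSO, and the authors' deposited table did not call it (1.01, DESeq2 adjusted p = 0.128). BCL2L11, which encodes BIM and binds all survival proteins, had 65.8 and 64.5 CPM in the ACBI-1 libraries, against 57.6 and 59.1 CPM in the DMSO libraries (log2 fold change 0.16, SE 0.0506, edgeR adjusted p = 0.00646). The groups did not overlap, and the rise lost the call in the deposited table (DESeq2 adjusted p = 0.147), without the low-count filter (edgeR adjusted p = 0.0593), without ACBI-1 replicate 1 (0.0522) and without DMSO replicate 1 (0.117). MIR4435-2HG, on the opposite strand, held 20.8% as many counts as BCL2L11 in MOLT-4 and had a log2 fold change of -0.70.

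The 3 BH3-only genes that fell did so by larger factors than the survival genes. BIK, first found as a BCL2-interacting killer, had 2.05 and 2.48 CPM in the ACBI-1 libraries, against 4.84 and 4.89 CPM in the DMSO libraries (log2 fold change -1.10, SE 0.181, edgeR adjusted p = 1.4e-06). BID, which caspase-8 cleaves to link death receptors to mitochondria, had 61.1 and 65.1 CPM in the ACBI-1 libraries, against 97.0 and 96.4 CPM in the DMSO libraries (log2 fold change -0.61, SE 0.0474, edgeR adjusted p = 5.16e-15). PMAIP1, which encodes NOXA, a selective partner of MCL1, had 23.1 and 27.5 CPM in the ACBI-1 libraries, against 39.1 and 37.1 CPM in the DMSO libraries (log2 fold change -0.59, SE 0.0698, edgeR adjusted p = 9.44e-10). In each of the 3 both ACBI-1 libraries were below both DMSO libraries. BAD, a partner of BCL2 and BCL-xL that growth factor kinases phosphorylate, averaged 23.6 ± 1.37 CPM with ACBI-1 and 26.1 ± 0.0734 CPM with DMSO (SD, n = 2 each), with a log2 fold change of -0.15 (edgeR adjusted p = 0.0765). Its opposite-strand neighbour GPR137 held 99.7% as many counts. HRK had 16 and 9 counts with ACBI-1 against 6 and 8 with DMSO.

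BMF and BCL2L11 were the 2 BH3-only genes called higher both with ACBI-1 in MOLT-4 and in the DND-41 libraries numbered 2, so their promoters are shown. The 250 bases before the RefSeq start (GRCh38.p14) are printed 5′ to 3′ on the gene's strand, with capitals marking the letters searched. BMF lies on the minus strand, chr15:40108880-40109129 (the first of 2 starts listed), and holds TGGGAA, the core bound by RBPJ, the DNA-binding partner of NOTCH. BCL2L11 lies on the plus strand, chr2:111120664-111120913, and holds GTAAACA, the core bound by forkhead factors such as FOXO3.
BMF: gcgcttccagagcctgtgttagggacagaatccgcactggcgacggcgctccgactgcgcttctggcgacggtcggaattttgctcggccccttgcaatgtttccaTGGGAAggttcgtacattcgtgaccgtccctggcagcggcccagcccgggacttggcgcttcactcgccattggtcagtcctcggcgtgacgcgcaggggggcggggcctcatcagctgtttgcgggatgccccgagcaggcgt
BCL2L11: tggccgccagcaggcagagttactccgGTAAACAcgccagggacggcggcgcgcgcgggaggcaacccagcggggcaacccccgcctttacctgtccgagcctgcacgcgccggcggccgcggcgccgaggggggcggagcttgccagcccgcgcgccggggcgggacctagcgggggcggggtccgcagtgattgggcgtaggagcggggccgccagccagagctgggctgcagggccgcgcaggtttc

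The search covered both strands of the 26 members with a RefSeq promoter, and overlaps with other motifs were allowed. TGGGAA was found in 7 of 26, against 20.8% of 35116 promoters, and GTAAACA in 1 of 26, against 2.98%. The RUNX core TGTGGT was present in 3 members (11% of all promoters) and the ETS core CCGGAA likewise in 3 (14.5%). The GATA core AGATAA was present in 3 (9.17%), and the AP-1 site TGACTCA in 1 of the members (4.2%). A match is a string of letters and not a measured binding site, and binding was not measured here. BCL2L2, MCL1, BIK, CASP1 and CASP10 were not among the promoters matched.

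Of the pore formers, BAK1 fell with ACBI-1 in MOLT-4 and BAX was not called. With total-count scaling BAX was called higher (0.14, edgeR adjusted p = 0.0123). BAK1, which resides on the outer mitochondrial membrane, had 41.1 and 47.0 CPM in the ACBI-1 libraries, against 61.5 and 59.8 CPM in the DMSO libraries (log2 fold change -0.46, SE 0.0573, edgeR adjusted p = 3.15e-09). BAX, which moves there from the cytosol, had 71.1 and 67.1 CPM in the ACBI-1 libraries, against 69.9 and 66.1 CPM in the DMSO libraries (log2 fold change 0.02, SE 0.0501, edgeR adjusted p = 0.71). The ACBI-1 libraries were the low pair for BAK1, whereas the groups overlapped for BAX. BOK, the third member of the class, had 4 and 7 counts with ACBI-1 and 3 and 7 counts with DMSO.

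The promoters of both pore formers are shown because BAK1 was called in MOLT-4 and BAX was not. A difference between the 2 genes was not tested, nor was any link to their promoters. BAX lies on the plus strand, chr19:48954625-48954874, and carries 4 copies of CACGTG, the E-box core bound by MYC and its partner MAX. BAK1 lies on the minus strand, chr6:33580277-33580526, with 1 TGGGAA and no E-box core. That core, CACGTG, was found in 2 of the 26 member promoters, those of BAX and BBC3, against 6.34% of all promoters.
BAX: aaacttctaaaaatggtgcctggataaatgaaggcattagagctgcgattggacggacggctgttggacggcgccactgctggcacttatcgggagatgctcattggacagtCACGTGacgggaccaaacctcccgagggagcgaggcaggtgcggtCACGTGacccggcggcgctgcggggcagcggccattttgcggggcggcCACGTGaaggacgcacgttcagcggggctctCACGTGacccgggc
BAK1: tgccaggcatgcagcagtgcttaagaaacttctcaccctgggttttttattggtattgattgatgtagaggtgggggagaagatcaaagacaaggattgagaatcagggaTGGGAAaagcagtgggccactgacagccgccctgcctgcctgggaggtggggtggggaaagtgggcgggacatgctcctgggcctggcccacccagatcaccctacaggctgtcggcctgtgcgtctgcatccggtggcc

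Of the 4 initiator caspases 3 rose and 0 fell with ACBI-1 in MOLT-4, while CASP1, CASP4 and CASP6 fell. CASP10, the death receptor caspase next to CASP8, had 42.0 and 41.3 CPM in the ACBI-1 libraries, against 28.8 and 29.7 CPM in the DMSO libraries (log2 fold change 0.51, SE 0.0618, edgeR adjusted p = 1.8e-09). CASP8 rose with a log2 fold change of 0.28 (edgeR adjusted p = 2.69e-05) and CASP2, the initiator of the PIDDosome, by 0.09 (edgeR adjusted p = 0.0349), a call that was lost in the deposited table (DESeq2 adjusted p = 0.176), without the low-count filter and without 3 of the 4 libraries (ACBI-1 replicate 1 and both DMSO replicates). CASP9, the caspase of the apoptosome, was at 0.10 (edgeR adjusted p = 0.472).

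CASP1, which cleaves interleukin-1 beta in the inflammasome, had the largest change of any member in MOLT-4. It was at 0.847 and 1.20 CPM in the ACBI-1 libraries, against 5.51 and 5.60 CPM in the DMSO libraries, a factor of 5.41 (log2 fold change -2.44, SE 0.213, edgeR adjusted p = 2.53e-13). CASP4, which senses bacterial lipopolysaccharide, had 10.2 and 10.7 CPM in the ACBI-1 libraries, against 19.8 and 21.6 CPM in the DMSO libraries (log2 fold change -0.99, SE 0.0905, edgeR adjusted p = 9.88e-13). In both genes the ACBI-1 libraries were well below the DMSO libraries. CASP6, an executioner that cleaves nuclear lamins, fell as well (log2 fold change -0.38, SE 0.0607, edgeR adjusted p = 7.62e-07), with MCUB on the opposite strand at 176% of its counts and a log2 fold change of 0.23.

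Among the apoptosome and IAP genes, the inhibitors XIAP and BIRC2 rose and HTRA2, an antagonist, fell. XIAP, a direct inhibitor of caspases, averaged 79.6 ± 2.20 CPM with ACBI-1 and 60.4 ± 2.53 CPM with DMSO (SD, n = 2 each) (log2 fold change 0.40, edgeR adjusted p = 3.69e-09). BIRC2, the ubiquitin ligase cIAP1 of TNF receptor complexes, averaged 55.1 ± 2.54 CPM with ACBI-1 and 43.3 ± 0.111 CPM with DMSO (SD, n = 2 each) (log2 fold change 0.35, edgeR adjusted p = 7.57e-07). HTRA2, a mitochondrial protease that displaces XIAP once released, fell (-0.43, edgeR adjusted p = 1.95e-07), while its opposite-strand neighbour AUP1 held 482% as many counts and stood at a log2 fold change of -0.11. DIABLO, the other antagonist, was at 0.11 (edgeR adjusted p = 0.435) and APAF1, the scaffold of the apoptosome, at 0.14 (edgeR adjusted p = 0.0906).

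In death receptor signalling CFLAR and RIPK1 rose and the adaptor FADD was not called. CFLAR, which encodes c-FLIP and blocks CASP8 at the receptor, had 47.3 and 51.4 CPM in the ACBI-1 libraries, against 25.1 and 24.9 CPM in the DMSO libraries (log2 fold change 0.98, SE 0.0634, edgeR adjusted p = 1.56e-17). RIPK1, a kinase that steers between survival, apoptosis and necroptosis, averaged 51.0 ± 0.743 CPM with ACBI-1 and 36.2 ± 1.28 CPM with DMSO (SD, n = 2 each) (log2 fold change 0.49, edgeR adjusted p = 7.33e-10). FADD was at -0.13 (edgeR adjusted p = 0.325), with overlapping groups. The change of CFLAR was a factor of 1.98, with both ACBI-1 libraries above both DMSO libraries.

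Of 39 other genes of the pathway, 32 were tested in MOLT-4, and 6 were higher, 12 lower and 14 not called. The called ones were 56.2% of those tested, near the 58.4% of all genes. FAS, the death receptor of the CD95 ligand, had 7.98 and 7.09 CPM in the ACBI-1 libraries, against 20.4 and 20.7 CPM in the DMSO libraries (log2 fold change -1.45, edgeR adjusted p = 5.57e-17), with ACTA2 on the opposite strand at 11.1% of its counts. TNFSF10, the ligand TRAIL, fell by 1.93 on the log2 scale (edgeR adjusted p = 2.56e-09), and the TNF receptor TNFRSF1A by 0.62 (edgeR adjusted p = 3.66e-13). CYCS, cytochrome c, was at -0.66 (edgeR adjusted p = 1.96e-19). BIRC3, the paralog of BIRC2, rose by 0.96 (edgeR adjusted p = 8.31e-14). These genes were among those with the smallest adjusted p of the list.

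**Figure D2:**
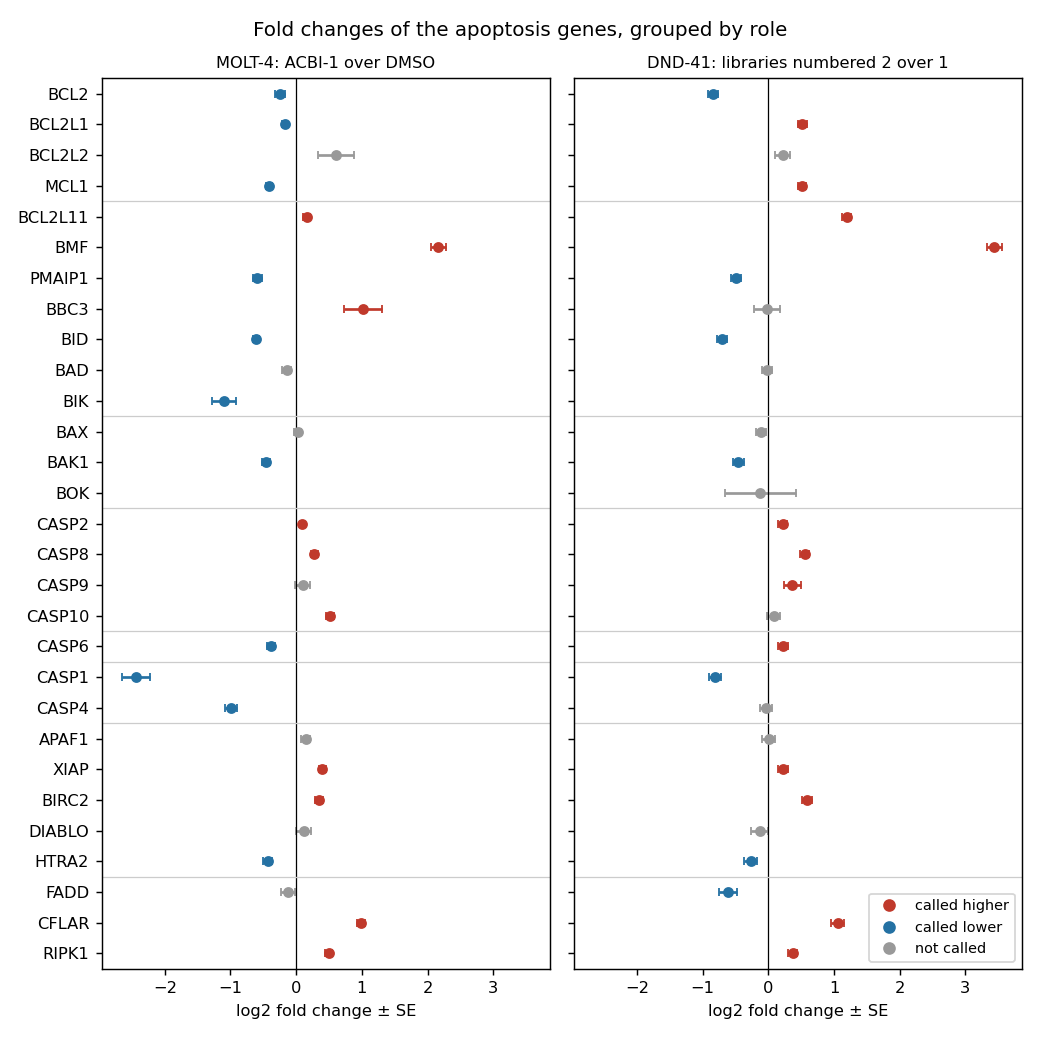
Log2 fold change with its standard error of each tested member, grouped by role from survival genes at the top to death receptor signalling at the bottom, for ACBI-1 over DMSO in MOLT-4 (left) and for the libraries numbered 2 over those numbered 1 in DND-41 (right). Colours mark edgeR calls at an adjusted p under 0.05. BMF is the highest point in both panels (2.16 and 3.44), CASP1 the lowest in MOLT-4 (-2.44), and MCL1 and BCL2L1 are on opposite sides of 0 in the panels.

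In DND-41 as labelled, no member was called between ACBI-1 and DMSO in fits without a term for library number. edgeR called 0 of 28 members and 0% of 14602 genes, DESeq2 called 0 members, and 0 members had an unadjusted p under 0.05. On simulated data with its spread, this fit recovered 0% of true 1.5-fold changes, 10.4% of 2-fold and 66.7% of 4-fold changes. The lack of calls therefore does not show that changes of 1.5-fold or 2-fold are absent. With library number as a term, an alternative given below, edgeR called 5 members and 9.24% of all genes. MCL1 had 185 and 269 CPM in the libraries labelled ACBI-1, against 186 and 262 CPM in those labelled DMSO. BCL2L1 had 461 and 641 CPM in the libraries labelled ACBI-1, against 471 and 688 CPM in those labelled DMSO, and BCL2 160.4 and 88.5 CPM in the libraries labelled ACBI-1, against 145 and 81.4 CPM in those labelled DMSO. In each the group labelled ACBI-1 held 1 high and 1 low library, as did the group labelled DMSO, and the groups overlapped. BCL2L11 had 81.1 and 179 CPM in the libraries labelled ACBI-1, against 74.0 and 175 CPM in those labelled DMSO, and BMF 4.56 and 43.6 CPM in the libraries labelled ACBI-1, against 3.47 and 43.7 CPM in those labelled DMSO. BAX had 68.1 and 63.3 CPM in the libraries labelled ACBI-1, against 74.9 and 69.0 CPM in those labelled DMSO, and BAK1 56.0 and 37.7 CPM in the libraries labelled ACBI-1, against 55.0 and 42.9 CPM in those labelled DMSO. Log2 fold changes of the tested members ran from -0.21 (HTRA2) to 1.05 (BOK, on 5 to 12 counts per library), and the standard error for BMF was 1.52.

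Set by number, 19 of the 28 tested members differed between the DND-41 libraries. Those numbered 2 had more BMF, BCL2L11, CFLAR, MCL1 and BCL2L1 and less BCL2, CASP1, BID and FADD than those numbered 1. edgeR called 12 of 28 members higher and 7 lower, against 51.1% of all genes (25.4% higher and 25.7% lower), and the members' median log2 fold change was 0.04 against 0.02 over all genes. The members called are 67.9% of those tested, and the gap to all genes was not tested. The authors' deposited table of that line, which holds this contrast, had 9 members higher, 6 lower, 13 not called and 3 without an adjusted p, with 36.8% of all genes called. CASP9, CASP6, XIAP and HTRA2 were called by edgeR by number and not in that DND-41 table of the authors. The authors' deposited table for MOLT-4 had 7 members higher and 10 lower, with 35.1% of all genes called.

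**Figure D3:**
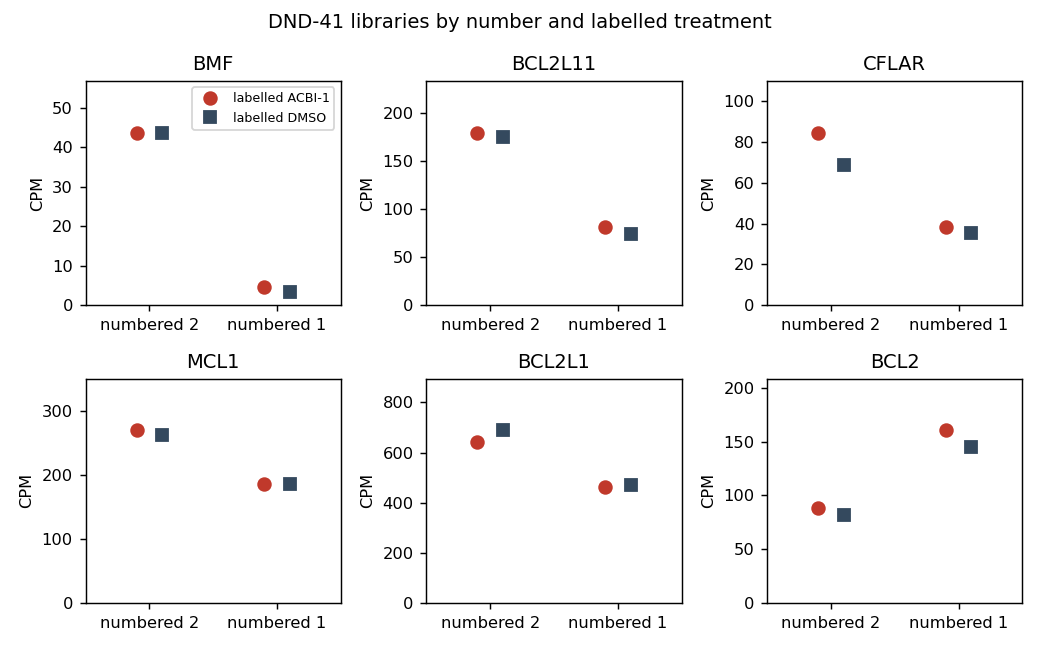
CPM of 6 members in each DND-41 library, with the libraries numbered 2 left of those numbered 1, circles for the label ACBI-1 and squares for the label DMSO. The libraries of the same number lie together whatever their label. BMF is at 43.6 and 43.7 CPM in the libraries numbered 2 and at 4.56 and 3.47 CPM in those numbered 1.

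The BH3-only gene BMF differed most by number. It had 43.6 and 43.7 CPM in the libraries numbered 2, against 4.56 and 3.47 CPM in those numbered 1, a factor of 10.9 (log2 fold change 3.44, SE 0.117, edgeR adjusted p = 2.83e-08). BCL2L11 had 179 and 175 CPM in the libraries numbered 2, against 81.1 and 74.0 CPM in those numbered 1 (log2 fold change 1.19, SE 0.0706, edgeR adjusted p = 5.54e-07), with MIR4435-2HG on the opposite strand at 29.6% of its counts and a log2 fold change of -0.32. BID had 42.1 and 44.5 CPM in the libraries numbered 2, against 68.1 and 72.9 CPM in those numbered 1 (log2 fold change -0.70, SE 0.0748, edgeR adjusted p = 2.71e-05). The libraries numbered 2 were high in BMF and BCL2L11 and low in BID, with no overlap. PMAIP1 was lower as well (-0.49, edgeR adjusted p = 2.45e-04), whereas BBC3 (-0.02, 0.927) and BAD (-0.02, 0.854) were not called. BIK had 0 and 1 counts in the libraries numbered 2 against 2 and 1 in those numbered 1, and HRK had 1 count in each of the 4.

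The survival genes of DND-41 went in different directions by number. MCL1 had 269 and 262 CPM in the libraries numbered 2, against 185 and 186 CPM in those numbered 1 (log2 fold change 0.52, SE 0.0631, edgeR adjusted p = 7.14e-05). BCL2L1 had 641 and 688 CPM in the libraries numbered 2, against 461 and 471 CPM in those numbered 1 (log2 fold change 0.51, SE 0.0678, edgeR adjusted p = 1.2e-04). BCL2 had 88.5 and 81.4 CPM in the libraries numbered 2, against 160.4 and 145 CPM in those numbered 1 (log2 fold change -0.85, SE 0.076, edgeR adjusted p = 8.25e-06). The libraries numbered 2 were thus the high pair in MCL1 and BCL2L1 and the low pair in BCL2. BCL2L2 was at 0.22 (edgeR adjusted p = 0.162, or 0.0453 with total-count scaling, with PPP1R3E at 423% of its counts), and BCL2A1 had 0 counts in all 4 libraries, which allows at most 0.138 to 0.141 CPM by counting error alone. Of the pore formers BAK1 had 37.7 and 42.9 CPM in the libraries numbered 2, against 56.0 and 55.0 CPM in those numbered 1 (log2 fold change -0.46, SE 0.0815, edgeR adjusted p = 8.58e-04), and BAX (-0.11, edgeR adjusted p = 0.255) and BOK (-0.12, edgeR adjusted p = 0.87) were not called.

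Caspases and their regulators also differed by number in DND-41. CFLAR had 84.6 and 68.9 CPM in the libraries numbered 2, against 38.2 and 35.5 CPM in those numbered 1 (log2 fold change 1.06, SE 0.1, edgeR adjusted p = 1.2e-05), and BIRC2 81.5 and 75.3 CPM in the libraries numbered 2, against 53.1 and 51.1 CPM in those numbered 1 (log2 fold change 0.59, SE 0.0736, edgeR adjusted p = 8.35e-05). CASP8 had 75.7 and 79.3 CPM in the libraries numbered 2, against 53.3 and 52.4 CPM in those numbered 1 (log2 fold change 0.55, SE 0.0698, edgeR adjusted p = 9.08e-05). All 3 were higher in the libraries numbered 2. CASP1 had 12.7 and 14.1 CPM in the libraries numbered 2, against 23.5 and 23.5 CPM in those numbered 1 (log2 fold change -0.81, SE 0.094, edgeR adjusted p = 4.89e-05), and FADD 10.7 and 9.07 CPM in the libraries numbered 2, against 13.6 and 16.8 CPM in those numbered 1 (log2 fold change -0.62, SE 0.134, edgeR adjusted p = 0.00313), both lower. RIPK1 (0.37), CASP9 (0.36), CASP6 (0.22), XIAP (0.22) and CASP2 (0.22) were called higher and HTRA2 (-0.27) lower on the log2 scale. On the opposite strand, AUP1 held 425% as many counts as HTRA2 and had a log2 fold change of -0.31. MCUB held 273% as many counts as CASP6 and was at 0.02. CASP9 and CASP6 lost their calls whichever of the 4 libraries was left out (edgeR adjusted p = 0.0582 to 0.224). CASP2 lost its call without ACBI-1 replicate 2 or either DMSO replicate (0.101 to 0.173), and XIAP and HTRA2 theirs without ACBI-1 replicate 2 or DMSO replicate 1 (0.252 to 0.342). CASP10 (0.08), CASP4 (-0.04), APAF1 (0.01) and DIABLO (-0.13) were not called.

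Of the 31 other pathway genes tested in DND-41, 8 were higher and 14 lower in the libraries numbered 2. The called ones were 71% of those tested, against 51.1% of all genes, a gap that was not tested. The TRAIL gene TNFSF10 had 24.7 and 26.1 CPM in the libraries numbered 2, against 79.5 and 82.5 CPM in those numbered 1 (log2 fold change -1.67, edgeR adjusted p = 1e-07). MLKL, which executes necroptosis, was at -1.11 (edgeR adjusted p = 2.36e-05) and CYCS at -0.81 (9.77e-06). FBXW7, part of the ubiquitin ligase that degrades MCL1 and NOTCH1, was higher (0.72, edgeR adjusted p = 1.46e-05), as was the mitophagy receptor BNIP3L (0.60, 5.43e-05), whose opposite-strand neighbour PNMA2 held 49.2% as many counts.

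Set side by side, 17 members were called both by treatment in MOLT-4 and by number in DND-41. That is 17 of the 21 called in MOLT-4 and 17 of the 19 called in DND-41. The sign was the same in 14 of them. Of the 27 members tested in both lines this is 63% called in both, of which 82.4% had the same sign, against 38.8% of the 13272 genes tested in both, of which 92.6% had the same sign. BCL2L11, BMF, CASP2, CASP8, XIAP, BIRC2, CFLAR and RIPK1 were higher in both, and BCL2, PMAIP1, BID, BAK1, CASP1 and HTRA2 were lower in both. BCL2L1, MCL1 and CASP6 had opposite signs, lower with ACBI-1 in MOLT-4 and higher in the libraries numbered 2 of DND-41. The authors' deposited table for MOLT-4 did not call BCL2, BCL2L11 and CASP2 (DESeq2 adjusted p = 0.137 to 0.176). Their table for DND-41 did not call XIAP, HTRA2 and CASP6 (DESeq2 adjusted p = 0.074 to 0.307). The numbers of the DND-41 libraries are not treatments by their labels, although the authors' deposited comparison of DMSO and ACBI-1 for that line holds this contrast. How a sign by number relates to ACBI-1 is therefore not settled here.

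The difference between the MOLT-4 contrast and the DND-41 contrast was tested in 1 edgeR fit of the 8 libraries. As labelled, and without a term for library number, the interaction of line and treatment called 0 of 29 members and 0.393% of 16047 genes. At an unadjusted p under 0.05 it held 4 members (CASP4, CASP1, BBC3 and CASP10), and DESeq2 called CASP1 and CASP4. With library number as a term within each line, an alternative given below, edgeR called 17 members and 36.5% of all genes. No label says that same-numbered libraries form a pair. The lack of calls thus depends on that term and does not show that the labelled contrasts of the lines are alike. With DND-41 grouped by number, the difference was called in 10 members, 3 higher and 7 lower in MOLT-4, against 20.6% of all genes (11.7% higher and 8.95% lower). MCL1 (-0.91, SE 0.0801, edgeR adjusted p = 5.35e-08) and BCL2L1 (-0.67, SE 0.0821, edgeR adjusted p = 4.37e-06) were among the lower ones, with BCL2L11, BMF, CASP6, CASP1 and CASP4. BCL2, BBC3 and CASP10 were the higher ones. CFLAR, whose log2 fold changes were 0.98 in MOLT-4 and 1.06 in DND-41, had a difference of -0.06 (SE 0.121, edgeR adjusted p = 0.813).

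MOLT-4 and DND-41 held different levels of these genes. Per length, as TPM (reads per base of exon, scaled to the same sum in each library), the survival genes were lower in MOLT-4 than in DND-41, and no pore former was called with DND-41 taken as 1 group. edgeR called 4 of 29 members higher and 10 lower in MOLT-4 than in DND-41, against 53.4% of all genes (26.8% higher and 26.6% lower). The members' median log2 fold change was -0.29, against -0.02 over all genes, and scaling by total counts moved that of all genes by -0.13. Line cannot be told apart from table, since each line was counted in a table of its own. In bulk RNA, fewer cells expressing a gene and less RNA per cell cannot be told apart either.

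**Figure D4:**
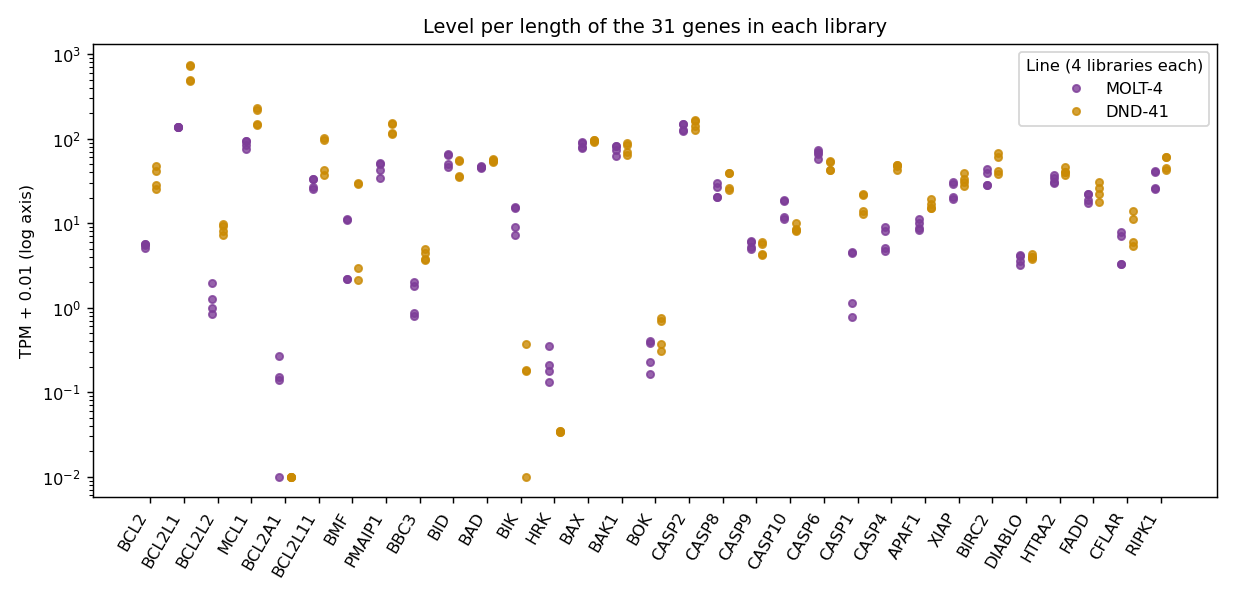
TPM (plus 0.01, log axis) of the 31 members in every library, MOLT-4 left of DND-41 in each pair and 4 libraries per line, ordered by role. BCL2L1 is the most abundant member in DND-41 (478 to 752 TPM), with CASP2 and BCL2L1 at about the same level in MOLT-4, and BCL2A1, HRK and BOK are below 1 TPM throughout.

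All 4 tested survival genes were lower in MOLT-4. BCL2L1 was at 139, 138, 139 and 137 TPM in MOLT-4, against 489, 725, 478 and 752 TPM in DND-41 (log2 fold change -1.85, edgeR adjusted p = 1.36e-04). MCL1 was at 75.8, 84.7, 95.0 and 93.0 TPM in MOLT-4, against 149, 231, 143 and 217 TPM in DND-41 (log2 fold change -0.79, edgeR adjusted p = 0.00487). BCL2 was at 5.12, 5.61, 5.62 and 5.55 TPM in MOLT-4, against 48.0, 28.2, 41.5 and 25.1 TPM in DND-41 (log2 fold change -2.43, edgeR adjusted p = 4.17e-04). The lines did not overlap in any of the 3, and MCL1 lost its call with the DMSO libraries alone (-0.59, edgeR adjusted p = 0.0746). BCL2L2 was at 1.24, 1.93, 0.840 and 0.988 TPM in MOLT-4, against 7.21, 9.64, 8.05 and 9.35 TPM in DND-41 (log2 fold change -2.54, edgeR adjusted p = 7.02e-05).

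BH3-only genes differed in both directions between the lines. PMAIP1 was at 34.4, 42.4, 51.8 and 49.9 TPM in MOLT-4, against 150.5, 115, 155 and 118 TPM in DND-41 (log2 fold change -1.33, edgeR adjusted p = 7.47e-04). BBC3 was at 1.77, 2.01, 0.796 and 0.853 TPM in MOLT-4, against 4.45, 3.65, 3.78 and 4.96 TPM in DND-41 (log2 fold change -1.46, edgeR adjusted p = 6.26e-04). Both were lower in every MOLT-4 library than in any DND-41 library. BIK was the reverse, with 307 counts in the 4 MOLT-4 libraries against 4 in the 4 DND-41 libraries, a ratio of 75.6 (exact 95% interval 29.2 to 279, counting error only, edgeR adjusted p = 5.58e-05). BCL2L11 was at 32.9, 33.4, 25.6 and 26.7 TPM in MOLT-4, against 42.9, 101, 37.4 and 95.5 TPM in DND-41 and did not pass (log2 fold change -0.92, edgeR adjusted p = 0.0543), nor did BMF, BID and BAD. BCL2L11 was called lower with total-count scaling (edgeR adjusted p = 0.0454), with DESeq2 (adjusted p = 0.0127) and without DND-41 ACBI-1 replicate 1 or DMSO replicate 1 (edgeR adjusted p = 0.0159 and 0.0107). BID was called higher in MOLT-4 with DESeq2 (0.59, adjusted p = 0.0292) and without either of the same libraries (edgeR adjusted p = 0.0119 and 0.0152). With DND-41 grouped by number, BCL2L11 (-0.80) and BMF (-0.53) were called lower and BID (0.62) higher in MOLT-4 (edgeR adjusted p = 9.91e-13, 1.75e-05 and 1.24e-10). Grouped in that way, 76.2% of all genes were called. HRK had 39 counts in MOLT-4 against 4 in DND-41, a ratio of 9.60 (exact 95% interval 3.47 to 37.0).

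BAX was at 91.6, 89.3, 80.1 and 76.8 TPM in MOLT-4, against 92.6, 91.6, 97.5 and 96.6 TPM in DND-41, and BAK1 at 61.8, 73.1, 82.4 and 81.2 TPM in MOLT-4, against 89.0, 63.9, 83.7 and 70.3 TPM in DND-41. The TPM of BAK1 overlapped between the lines, and those of BAX came within rounding of each other, with the MOLT-4 libraries lower, although the fitted log2 fold change of BAX, on TMM-scaled counts, was 0.12. Neither was called (edgeR adjusted p = 0.18 for BAX and 0.24 for BAK1). With DND-41 grouped by number both were called higher in MOLT-4, BAX by 0.12 and BAK1 by 0.25 on the log2 scale (edgeR adjusted p = 0.0316 and 3.31e-04). That setting called 76.2% of all genes, so a call there sets a member little apart. BAK1 was also called higher without DND-41 ACBI-1 replicate 1 (0.40, edgeR adjusted p = 0.0262). Among the caspases, CASP4 was at 4.67, 5.09, 8.07 and 8.97 TPM in MOLT-4, against 43.1, 47.3, 48.7 and 48.6 TPM in DND-41 (log2 fold change -2.57, edgeR adjusted p = 1.97e-06). CASP1 was at 0.763, 1.11, 4.41 and 4.55 TPM in MOLT-4, against 22.4, 12.9, 21.4 and 13.8 TPM in DND-41 (log2 fold change -2.83, edgeR adjusted p = 3.41e-04). The inflammatory caspases were low in MOLT-4 with and without ACBI-1, and every MOLT-4 library was below every DND-41 library. CASP10 was at 18.4, 18.7, 11.2 and 11.8 TPM in MOLT-4, against 8.35, 9.98, 8.05 and 8.57 TPM in DND-41 (log2 fold change 1.03, edgeR adjusted p = 5.87e-05). CASP6 was at 58.1, 65.8, 72.6 and 69.5 TPM in MOLT-4, against 43.1, 54.2, 42.3 and 52.2 TPM in DND-41 (log2 fold change 0.76, edgeR adjusted p = 5.5e-04). These 2 were higher in MOLT-4, without overlap. APAF1 was at 10.1, 11.2, 8.36 and 8.68 TPM in MOLT-4, against 17, 19.2, 15 and 15.2 TPM in DND-41 (log2 fold change -0.51, edgeR adjusted p = 0.0011). CASP9 (0.44, higher) and RIPK1 (-0.39, lower) were called with edgeR adjusted p of 0.0344 and 0.0268. CASP9 lost its call without DND-41 ACBI-1 replicate 1, DND-41 DMSO replicate 1 or any 1 of the MOLT-4 libraries (edgeR adjusted p = 0.0593 to 0.105). RIPK1 lost its call without DND-41 ACBI-1 replicate 2, DND-41 DMSO replicate 2 or any 1 of the MOLT-4 libraries (edgeR adjusted p = 0.0505 to 0.0931). Of 33 other pathway genes tested, 11 were higher and 9 lower in MOLT-4, which is 60.6% called, against 53.4% of all genes. The smallest adjusted p belonged to the mitophagy receptor BNIP3 (3.87), FOXO1 (-4.93), the TRAIL receptor TNFRSF10A (-5.06), the inhibitor NAIP (4.14), TNFSF10 (-4.64) and BIRC6 (-0.47).

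The balance of survival and death genes is given as ratios of summed TPM, with no test. In MOLT-4 the 5 survival genes summed to 221 and 230.2 TPM with ACBI-1, against 240.4 and 236 TPM with DMSO. The 8 BH3-only genes summed to 181 and 194 TPM with ACBI-1, against 206 and 206 TPM with DMSO. Survival over BH3-only genes was therefore 1.22 and 1.19 with ACBI-1, against 1.17 and 1.15 with DMSO. Both sums were lower with ACBI-1 without overlap. The direction of their ratio turned with the unit: it was higher with ACBI-1 in TPM, and in summed counts, not divided by length, it was lower, at 1.308 and 1.295 with ACBI-1 against 1.387 and 1.351 with DMSO. Survival genes over pore formers gave 1.44 and 1.41 with ACBI-1, against 1.48 and 1.49 with DMSO.

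The makeup of the sums differed as well. BCL2L1 held 62.9% and 59.9% of the survival TPM of MOLT-4 with ACBI-1, against 57.7% and 57.8% with DMSO, and MCL1 held 34.3% and 36.8% against 39.5% and 39.4%. Among BH3-only genes BMF held 6.05% and 5.74% with ACBI-1, against 1.06% and 1.05% with DMSO, and BCL2L11 held 18.2% and 17.2% against 12.5% and 12.9%. BID held 25.3% and 26.0% with ACBI-1, against 31.4% and 31.6% with DMSO. The shares of BMF, BCL2L11, BBC3, BAD and HRK were higher with ACBI-1 and those of BID, PMAIP1 and BIK lower, without overlap.

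In DND-41 the survival genes exceeded the BH3-only genes more than in MOLT-4. Survival over BH3-only genes was 2.91 and 2.96 in the libraries numbered 2, against 2.24 and 2.19 in those numbered 1, when taken in TPM. In summed counts the order turned, with 2.79 and 2.84 in the libraries numbered 2, against 2.91 and 2.87 in those numbered 1. Survival over pore formers in TPM was 6.36 and 6.0, against 3.80 and 3.70. BCL2 over BCL2L11 was lower in the libraries numbered 2, at 0.493 and 0.464 as a ratio of counts in the libraries numbered 2, against 1.98 and 1.96 in those numbered 1. In MOLT-4 that ratio was 0.275 and 0.297 with ACBI-1, against 0.387 and 0.368 with DMSO. As labelled, every DND-41 ratio overlapped between ACBI-1 and DMSO.

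**Figure D5:**
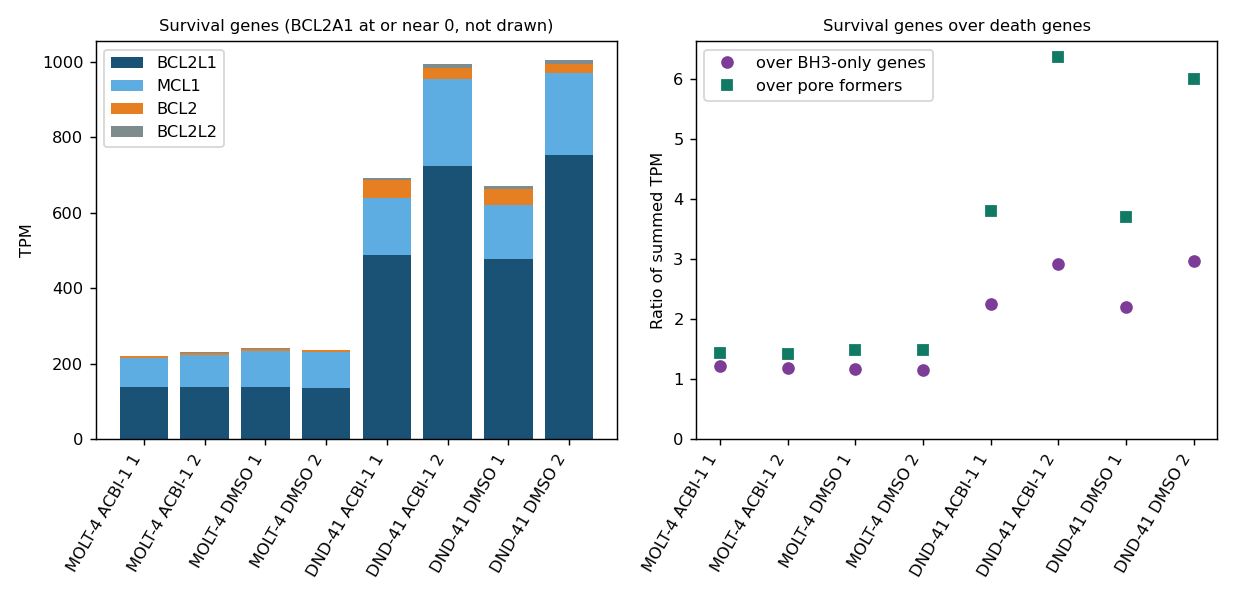
Left, stacked TPM of the 4 survival genes above 1 TPM in any library, 1 bar per library, with MOLT-4 left of DND-41. Right, the summed TPM of the survival genes divided by that of the BH3-only genes (circles) and by that of the pore formers (squares), with a y axis from 0. All MOLT-4 libraries lie between 1.15 and 1.22 for BH3-only genes, and the DND-41 libraries between 2.19 and 2.96, with the libraries numbered 2 above those numbered 1 in TPM, an order that turns in summed counts.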

How the data were processed

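Per the labels, strand-specific paired-end libraries of total RNA were sequenced from 8 samples, 2 per group. The submitters' processing notes name hg19, STAR 2.5.2a, featureCounts and DESeq2 1.12.4. How strand and multiply mapping reads were treated, and which annotation was used, is not given in the sources used here. The authors deposited raw counts per gene, 1 table per line, and 1 table per line with log2 fold changes and standard errors, a Wald score, p-values and adjusted p-values. The MOLT-4 counts have column names ending in "redo", per the file headers, without explanation. All 8 count columns were assigned to a sample.

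Here all genes were tested by the quasi-likelihood method of edgeR 4.0.16 (R 4.3.3, TMM, filterByExpr, Benjamini-Hochberg over all genes, threshold 0.05), with DESeq2 1.42.0 as an alternative. The script was tested on simulated data. TPM used exon lengths of GENCODE 29 (GRCh38), matched by Ensembl identifier, and were not tested. Promoters came from RefSeq. Values in every library are given for members called with an absolute log2 fold change of at least 0.5 and for BCL2, BCL2L1, MCL1, BCL2L11, BAX and BAK1, and others were summarised. The 31 members, the lists and the tests were chosen with earlier results of these data known. Intervals and floors (3 counts, 0.136 to 0.141 CPM) cover counting error only. Some genes of the wider pathway are not reported here.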

Additional observations from a re-analysis of the deposited data

Results flagged for a closer look

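For 10 members the log2 fold change of ACBI-1 over DMSO in MOLT-4 differed from that of the DND-41 libraries numbered 2 over those numbered 1, by a test of the difference itself in 1 edgeR fit of the 8 libraries. By their labels the DND-41 numbers are not treatments, so this is a difference between 2 contrasts of unlike kind.

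Among the survival genes the difference was -0.91 for MCL1 (edgeR adjusted p = 5.35e-08), -0.67 for BCL2L1 (4.37e-06) and 0.62 for BCL2 (0.00026). MCL1 and BCL2L1 were lower with ACBI-1 in MOLT-4 and higher in the libraries numbered 2 of DND-41, while BCL2 was lower in both and by less in MOLT-4. Among the BH3-only genes it was -1.26 for BMF (edgeR adjusted p = 2.57e-05) and -1.02 for BCL2L11 (4.41e-08), which were higher in both contrasts and by less in MOLT-4, and 1.05 for BBC3 (0.0406). The BBC3 difference lost its call with DESeq2 (adjusted p = 0.182), without the low-count filter (edgeR adjusted p = 0.124) and without either ACBI-1 library of DND-41 or any 1 of the MOLT-4 libraries (0.0878 to 0.142).

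Among the caspases the difference was -1.61 for CASP1 (edgeR adjusted p = 2.6e-05), -0.94 for CASP4 (1.65e-05), -0.58 for CASP6 (0.000313) and 0.45 for CASP10 (0.00532). CASP1 was lower in both contrasts and by more in MOLT-4, CASP6 had opposite signs, and CASP4 and CASP10 were called in MOLT-4 alone.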

How the results depend on the processing

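No alternative turned the sign of a called member. In MOLT-4, with 21 members called, scaling by total counts (22), RLE size factors (21), DESeq2 (17), no low-count filter (19) and each left-out library (19 to 21) kept the count within 1.5 times. Sharing the spread with DND-41 as labelled gave 3 members, and 544 genes in place of 8533. By number in DND-41, with 19 called, the alternatives gave 14 to 19, and left-out libraries 14 to 17. The difference between both contrasts, with 10 called, gave 9 to 11, and without the filter 2055 genes in place of 3307. MOLT-4 over DND-41, with 14 called, gave 12 to 19 (5293 genes in place of 8566 with DMSO libraries alone). Grouping DND-41 by number, an alternative added after the data were seen, gave 25 members and 12223 genes, 76.2% of all genes tested. The labelled interaction, with 0 members and 63 genes called, gave 2 members and 367 genes with DESeq2, and 0 members and 0 to 49 genes whichever library was left out. The cause of these moves was not tested.

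With a replicate block the count was 22 in MOLT-4 and 5 in DND-41 as labelled (BCL2, CFLAR and APAF1 higher, CASP4 and HTRA2 lower, log2 fold changes of -0.21 to 0.22, 1349 genes in place of 0), and 17 in the interaction (5860 genes). Same-numbered libraries deviated together in DND-41 (correlation 0.849) and not in MOLT-4 (0.00928). The number was thus a shared factor in DND-41 alone, and no label says that same-numbered libraries form a pair. Depth limits BCL2A1, HRK and BOK in both lines and BIK in DND-41, which had few counts.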

Other observations

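Transcription factors known to switch on BH3-only genes were among the other pathway genes tested. FOXO3, an activator of BCL2L11 and BBC3, was higher with ACBI-1 in MOLT-4 (log2 fold change 0.31, edgeR adjusted p = 4.47e-06) and in the DND-41 libraries numbered 2 (0.25, edgeR adjusted p = 0.0271), although the authors' deposited table for DND-41 did not call it (DESeq2 adjusted p = 0.104). FOXO1, its paralog, was higher in both as well (1.14, edgeR adjusted p = 0.0311, and 0.76, edgeR adjusted p = 1.36e-04). In MOLT-4 this rested on 17 and 14 counts with ACBI-1 against 7 and 6 counts with DMSO, and the authors' deposited table for that line did not call it (DESeq2 adjusted p = 0.334). In DND-41 as labelled neither was called (edgeR adjusted p = 1 for both, DND-41 ACBI-1 over DMSO), with unadjusted p of 0.462 to 0.78. These 2 genes were chosen from the other pathway genes after their values were seen.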
